A study of Mus musculus with 60 samples.

Results

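A set of 10 genes that build, load, release and position the cohesin ring were followed in nascent RNA. They were the core subunits Rad21, Smc1a, Smc3, Stag1 and Stag2, the loader genes Nipbl and Mau2, the release factors Wapl and Pds5a, and Ctcf. They were chosen by name, as the transcripts of a gene count table that the mouse annotation assigns to these symbols. The 10 genes had 11 of the 27665 transcripts in the table, because Stag1 was counted over 2 overlapping transcripts. The comparison asked of each gene was whether its own transcription changed when a cohesin or CTCF protein was degraded.

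Cohesin is a ring of SMC1A, SMC3 and RAD21 with either STAG1 or STAG2 attached. NIPBL, with its partner MAU2, loads the ring on DNA and drives it to extrude loops, whereas WAPL with PDS5A opens it and takes it off. CTCF is a zinc finger protein that binds DNA at oriented sites and halts the moving ring, so that loop ends and domain borders form there. Embryonic stem cells and neural progenitors use the same ring, and loss of RAD21 or CTCF protein removes loops within hours.

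Nascent RNA was labelled with 5-ethynyl uridine (EU, 0.5 mM for 20 min), captured and sequenced (EU-seq), so that values reported recent transcription and not the RNA stock of the cell. In all, 60 libraries from E14 mouse embryonic stem cells (mESC) and neural progenitor cells (NPC) were counted. Columns that name no length limit were taken as reads over the whole gene body, introns included. The NPC libraries treated for 1 h were counted over the first 90 kb of each gene only, and their NPC controls in both ways.

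Every line carried a degron fused to the endogenous protein, in its control libraries too. In GFP-AID-Rad21 cells, called RAD21-AID, 500 µM indole-3-acetic acid (IAA, an auxin) degrades RAD21. RAD21-AID mESC were sampled as control and after 4 h of IAA in an initial experiment (2 libraries each) and an additional one (12 each). RAD21-AID NPC, differentiated from these mESC through epiblast stem cells, were sampled as control, with IAA for 1, 2 or 4 h, or with A-485 (10 µM, 1 h), which blocks the catalytic domain shared by CBP and p300, enzymes that acetylate histones (2 libraries each). In GFP-AID-Ctcf cells, called CTCF-AID, 500 µM IAA for 6 h degrades CTCF, and control and treated cells each had 2 libraries made without strand information and 2 with it. In GFP-FKBP12F36V-Ctcf (Y226A/F228A) cells, called CTCF-YF-AA, both Ctcf alleles encode a CTCF with 2 substitutions in the stretch that holds cohesin, and 200 nM dTAG13 degrades it over 2 or 4 h. In bTAG-delN-CTCF/dTAG-CTCF-delC cells, called delN/delC, 1 allele makes a CTCF without its N terminus, which 100 nM AGB1 degrades, and the other a CTCF without its C terminus, which 100 nM dTAG13 degrades. These cells were sampled as control and after 2 h of AGB1, dTAG13 or both, with 2 libraries each, all made with strand information. CTCF-YF-AA and delN/delC cells came from picked colonies. Groups follow the titles and treatment labels. The treatment notes of 18 RAD21-AID, CTCF-AID and CTCF-YF-AA libraries speak of triptolide instead, and the count columns of delN/delC cells of 200 nM dTAG13.

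Library totals ran from 4027449 to 21898781 counts over gene bodies and from 13863983 to 17730066 over the first 90 kb. The 10 genes had between 261 counts (Mau2 in a CTCF-YF-AA control) and 14496 (Stag1 in NPC after 4 h of IAA). Replicate 1 of the additional mESC control and the replicates of the stranded CTCF-AID libraries stood apart from their groups. So did replicates 1 and 8 of the additional mESC after IAA. The NPC libraries of 2 h of IAA and the unstranded CTCF-AID libraries after IAA also differed between replicates. The 8 mESC marker genes summed to between 3581 and 5215 CPM (counts scaled to a common library total) in mESC controls and to between 54.5 and 60.1 CPM in NPC controls. The 9 NPC markers summed to between 1094 and 1147 CPM in NPC controls and to between 50.8 and 111 CPM in mESC controls, and 8 of the 9 were above 10 CPM in NPC, Hes5 being under 1 CPM. The 5 neuron markers were also all above 10 CPM in the NPC controls, at a sum of 289.8 to 291 CPM, against 21.3 to 79.8 CPM in mESC controls, and their part in the NPC values was not tested. All values are CPM of the library, not centred, unless a fold change is named. Log2 fold changes (log2FC) are relative to the median expressed gene. Genes were tested with the quasi-likelihood test of edgeR, adjusted p-values are Benjamini-Hochberg values over all genes tested, and a gene was called changed below an adjusted p of 0.05. Separate biological replicates are stated for the CTCF lines only, so p-values elsewhere measure the spread between these libraries. The effect of an agent and the effect of losing the protein cannot be told apart, since no untagged cells were treated.

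The promoters of Stag1 and Ctcf are shown because Stag1 was the gene that responded most often and Ctcf is a gene whose own protein was degraded. Both are from the RefSeq promoter table (GRCm38.p6), 300 bases each, 5′ to 3′ on the plus strand, and capitals mark matches to the YY1 motif AANATGGC on either strand. Stag1 starts at the position given for its counted transcript and Ctcf 41 bases from it.
Stag1, chr9:100643198-100643497: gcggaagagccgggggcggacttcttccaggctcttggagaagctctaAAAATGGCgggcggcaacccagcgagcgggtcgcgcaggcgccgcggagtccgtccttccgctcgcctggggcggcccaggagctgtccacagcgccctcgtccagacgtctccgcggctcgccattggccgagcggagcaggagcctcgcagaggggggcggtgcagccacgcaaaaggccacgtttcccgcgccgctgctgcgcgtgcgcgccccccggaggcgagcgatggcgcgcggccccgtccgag
Ctcf, chr8:105636288-105636587: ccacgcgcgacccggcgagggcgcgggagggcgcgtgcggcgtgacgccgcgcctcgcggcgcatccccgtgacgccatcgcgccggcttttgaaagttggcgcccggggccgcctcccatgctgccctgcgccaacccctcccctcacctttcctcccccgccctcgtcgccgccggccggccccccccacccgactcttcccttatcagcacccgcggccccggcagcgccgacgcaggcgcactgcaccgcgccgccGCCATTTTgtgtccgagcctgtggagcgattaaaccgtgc
Bases G and C made up 73.7% of the Stag1 and 75.3% of the Ctcf sequence. Of the 10 genes 7 were in the table, and 3 of them (Smc3, Stag1 and Ctcf) held the YY1 motif, which 6.05% of all 32851 promoters hold. None of the 7 held the CTCF core (CCA, NN, AG, NN and GGC in a row, N being any base) on either strand, which 2.43% of all promoters hold, so neither promoter shown has a match in this window.

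In GRCm38 coordinates, Rad21 lies at chr15:51962240-51991747 on the minus strand, over 29.5 kb and 14 exons, and Mau2 at chr8:70016123-70042734 on the minus strand, over 26.6 kb. Smc1a (chrX:152016428-152062694, plus strand), Smc3 (chr19:53600398-53645833, plus strand) and Ctcf (chr8:105636579-105682922, plus strand) span 46.3, 45.4 and 46.3 kb. Wapl (chr14:34673928-34747983, plus strand) spans 74.1 kb and Pds5a (chr5:65605721-65698168, minus strand) 92.4 kb. The long genes are Stag2 (chrX:42149317-42277185, plus strand) at 127.9 kb, Nipbl (chr15:8290617-8444463, minus strand) at 153.8 kb and Stag1 (chr9:100643448-100958545, plus strand) at 315.1 kb. The other counted Stag1 transcript (chr9:100597798-100737996) has 4 exons, starts upstream and overlaps the first one, and how reads in the overlap were assigned is not given in the sources used here. The opposite-strand genes Agrp and Gm5914 overlap 1.76 and 1.96% of Ctcf, and whether counting used strand is not given in the sources used here either.

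Rad21 was the most transcribed of the 10 per kb of gene. In the 12 additional mESC controls its level was 9.17 ± 0.172 CPM per kb (mean ± SD). Ctcf followed at 5.32 ± 0.168 CPM per kb, Smc3 at 4.91 ± 0.153 and Wapl at 4.58 ± 0.124, and the library ranges of these neighbours overlapped. Pds5a stood lower at 3.86 ± 0.160 CPM per kb, below every library of Wapl. Smc1a at 2.59 ± 0.0701 and Mau2 at 2.52 ± 0.127 CPM per kb could not be ordered within their spread, nor could Stag1 at 1.81 ± 0.0895 and Nipbl at 1.76 ± 0.0601. Stag2 was lowest at 1.13 ± 0.0418 CPM per kb, so that the gene of the STAG1 subunit was read more per kb than that of its alternative in these mESC.

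The 18 groups counted on whole gene bodies mix lines, cell types and libraries made with and without strand information. Over them, the core subunit genes Smc1a and Smc3 and both STAG genes differed in the range of their group means. The group means of Smc1a ran only from 2.25 to 2.94 CPM per kb, a 1.31-fold range. Those of Mau2 spanned 1.47-fold, of Ctcf 1.54-fold, of Nipbl 1.67-fold and of Rad21 1.68-fold, from 6.47 CPM per kb in NPC controls to 10.8 in CTCF-YF-AA cells after 4 h of dTAG13. Pds5a, Smc3 and Wapl spanned 1.76-, 1.91- and 2.01-fold. The STAG genes spanned most, Stag1 from 1.16 CPM per kb in unstranded CTCF-AID controls to 2.98 in RAD21-AID mESC of the initial experiment after IAA, and Stag2 from 0.806 to 2.52. For Stag1 the control groups alone spanned 2.26-fold. For Mau2 the lowest and highest control groups were the unstranded (2.296 CPM per kb) and stranded (3.265) CTCF-AID controls, of the same untreated line.

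Rad21, the gene of the kleisin subunit that closes the ring, was followed first, since its own protein was degraded in these lines. In the initial mESC experiment Rad21 was at 229.6 and 235 CPM in the controls and at 236 and 246 CPM after 4 h of IAA. In the additional experiment the 12 controls were at lowest 262, median 270.1, highest 279 CPM and the 12 treated libraries at lowest 243, median 265, highest 275 CPM. Both treated libraries of the initial experiment lay just above the controls, and the groups of the additional one overlapped, with the treated median the lower. The log2FC was 0.054 (95% CI -0.095 to 0.20, adjusted p 0.767) in the initial and -0.0059 (95% CI -0.043 to 0.031, adjusted p 0.797) in the additional experiment by edgeR. The interval of the additional experiment left room for a rise of at most 2.16% at its upper bound.

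In NPC, Rad21 was at 185 and 197 CPM in the controls, at 210.0 and 219.7 CPM after 2 h and at 211 and 208 CPM after 4 h of IAA. Over the first 90 kb it was at 226.6 and 242 CPM in the controls and at 250 and 234 CPM after 1 h. All 4 libraries of 2 and 4 h lay above both controls, while those of 1 h overlapped them. Only the 4 h value passed the test, at a log2FC of 0.10 (SE 0.039, 95% CI 0.023 to 0.18, adjusted p 0.0347), a 1.07-fold rise. At 1 and 2 h the log2FC was 0.028 (95% CI -0.064 to 0.12) and 0.13 (95% CI -0.018 to 0.27), with adjusted p 0.721 and 0.237 by edgeR. The 4 h call held under 5 of 11 alternatives, and it was lost with DESeq2 (adjusted p 0.171), without control replicate 1 (log2FC 0.065, adjusted p 0.337) and without either treated library (adjusted p 0.0996 and 0.0575).

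**Figure D1:**
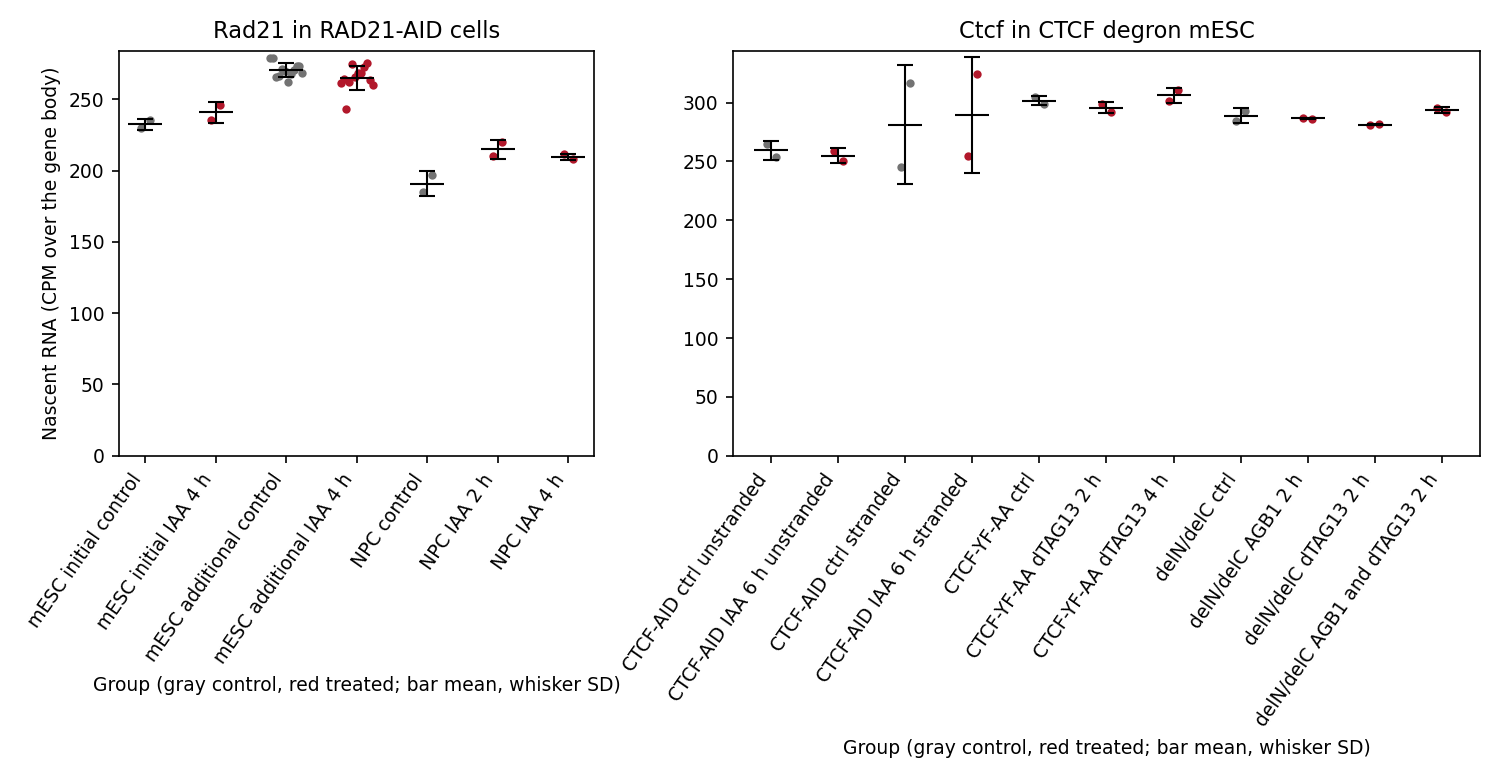
Nascent RNA of the gene whose own protein was degraded, in CPM per library (y axis) by group (x axis), for Rad21 in the RAD21-AID lines and Ctcf in the CTCF degron lines. Points are libraries, and lines and bars show the group mean and SD, and treated and control points lie close together, Rad21 in NPC at 4 h (211 and 208 CPM) being just above its controls (185 and 197 CPM).

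Ctcf gave no call after loss of its own protein in any of the 6 CTCF comparisons. In CTCF-AID cells Ctcf was at 265 and 254 CPM in the unstranded controls and at 259 and 250.4 CPM after 6 h of IAA. In the stranded libraries it was at 246 and 317 CPM and at 254 and 324 CPM. The same-numbered libraries were close to each other, and the replicates of the stranded set differed from each other far more than the treated from the controls. The log2FC over both library kinds was 0.046 (95% CI -0.17 to 0.26, adjusted p 0.868) by edgeR, and with the replicate number as a block it was 0.045 (adjusted p 0.453).

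The mutant CTCF lines showed Ctcf near its control level as well. CTCF-YF-AA cells had 305 and 299 CPM in controls, 299 and 292 CPM after 2 h and 302 and 311 CPM after 4 h of dTAG13. The delN/delC cells had 285 and 293 CPM in controls, 287 and 286 CPM with AGB1, 281 and 282 CPM with dTAG13 and 295 and 292 CPM with both. With both agents 1 library lay above its controls and the dTAG13 libraries lay just below theirs. The log2FC was -0.014 (95% CI -0.13 to 0.10) and 0.033 (95% CI -0.069 to 0.14) in CTCF-YF-AA cells at 2 and 4 h. It was -0.0064 (95% CI -0.11 to 0.092) with AGB1, -0.038 (95% CI -0.14 to 0.069) with dTAG13 and 0.017 (95% CI -0.092 to 0.12) with both. The adjusted p in these 5 comparisons was between 0.834 and 0.999 by edgeR. Loss of RAD21 did not move Ctcf past the test either, and its log2FC in the additional mESC experiment was -0.0098 (95% CI -0.047 to 0.028).

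In RAD21-depleted mESC, Stag1 rose and Wapl fell. The initial experiment, with 2 libraries a group, called none of the 10 genes, where it called 8.64% of all genes. The additional experiment, with 12, called 5 of the 10, where it called 58.7% of all genes. Of the 5, Stag1, Stag2 and Mau2 rose, against 33% of all genes, and Wapl and Pds5a fell, against 25.7%. The median log2FC of the 10 was -0.028 in the initial and -0.0079 in the additional experiment. Without control replicate 1, and likewise without control replicate 2, the initial experiment called 1 of the 10.

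Stag1, which encodes the STAG1 subunit of the ring, was in the additional experiment at lowest 528, median 566, highest 642 CPM in the controls and lowest 587, median 665, highest 703 CPM after 4 h of IAA. All 12 treated libraries lay above the control median and 7 lay above the highest control. Its log2FC was 0.22 (SE 0.026, adjusted p 5.31e-10), a 1.16-fold rise, and the overlapping transcript gave 0.20 (adjusted p 1.33e-08). In the initial experiment Stag1 was at 760.5 and 889 CPM in the controls and at 979.9 and 896 CPM after IAA, both treated libraries just above the higher control. There the log2FC was 0.19 (95% CI 0.024 to 0.35) and missed the threshold (adjusted p 0.157 by edgeR). Libraries of replicate 1 carry another batch label than the rest, and within the larger batch the log2FC in the additional experiment was 0.21 (adjusted p 1.08e-09). The calls of Stag2, Mau2, Wapl and Pds5a were also kept there.

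Stag2, the gene of the alternative subunit, rose less. It was at lowest 137, median 144, highest 157 CPM in the controls and lowest 138, median 149.8, highest 156 CPM after IAA, in overlapping groups. The log2FC was 0.058 (SE 0.022, adjusted p 0.0242), a 1.04-fold change, and the call was lost without centring on expressed genes (adjusted p 0.0559). The other ring genes stayed near their controls, with log2FC of -0.030 for Smc1a (95% CI -0.072 to 0.011) and -0.028 for Smc3 (95% CI -0.064 to 0.0080).

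The loader genes gave 1 call. Mau2, the partner of NIPBL, was at lowest 62.3, median 67.7, highest 71.3 CPM in the controls and lowest 63.0, median 70.4, highest 79.8 CPM after IAA. Of its treated libraries 11 lay above the control median and 5 above the highest control. Its log2FC was 0.11 (SE 0.028, adjusted p 0.000689), a 1.08-fold rise. Nipbl itself had a log2FC of 0.045 (95% CI 0.0010 to 0.089, adjusted p 0.073 by edgeR), and with a trend along gene length removed it was called as higher (0.077, adjusted p 0.00229).

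The release factor genes were called lower, by small amounts. The median absolute log2FC of all tested genes in this experiment was 0.117. Wapl, which opens the ring, was at lowest 327, median 337, highest 354 CPM in the controls and lowest 289, median 303, highest 314 CPM after IAA, and the groups did not overlap. It fell with a log2FC of -0.13 (SE 0.018, adjusted p 1.37e-08), or 1.10-fold. Pds5a, which binds the ring with WAPL, was at lowest 339.9, median 355, highest 393 CPM in the controls and lowest 326, median 335, highest 349.9 CPM after IAA, with 7 treated libraries below the lowest control. Its log2FC was -0.061 (SE 0.020, adjusted p 0.00707), and it was -0.025 (adjusted p 0.285) after a trend along gene length was removed, which ended the call. In the initial experiment Wapl was at 347 and 389 CPM in the controls and 333 and 334 CPM after IAA, with both treated libraries below both controls and a log2FC of -0.14 (95% CI -0.29 to 0.012, adjusted p 0.299 by edgeR).

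**Figure D2:**
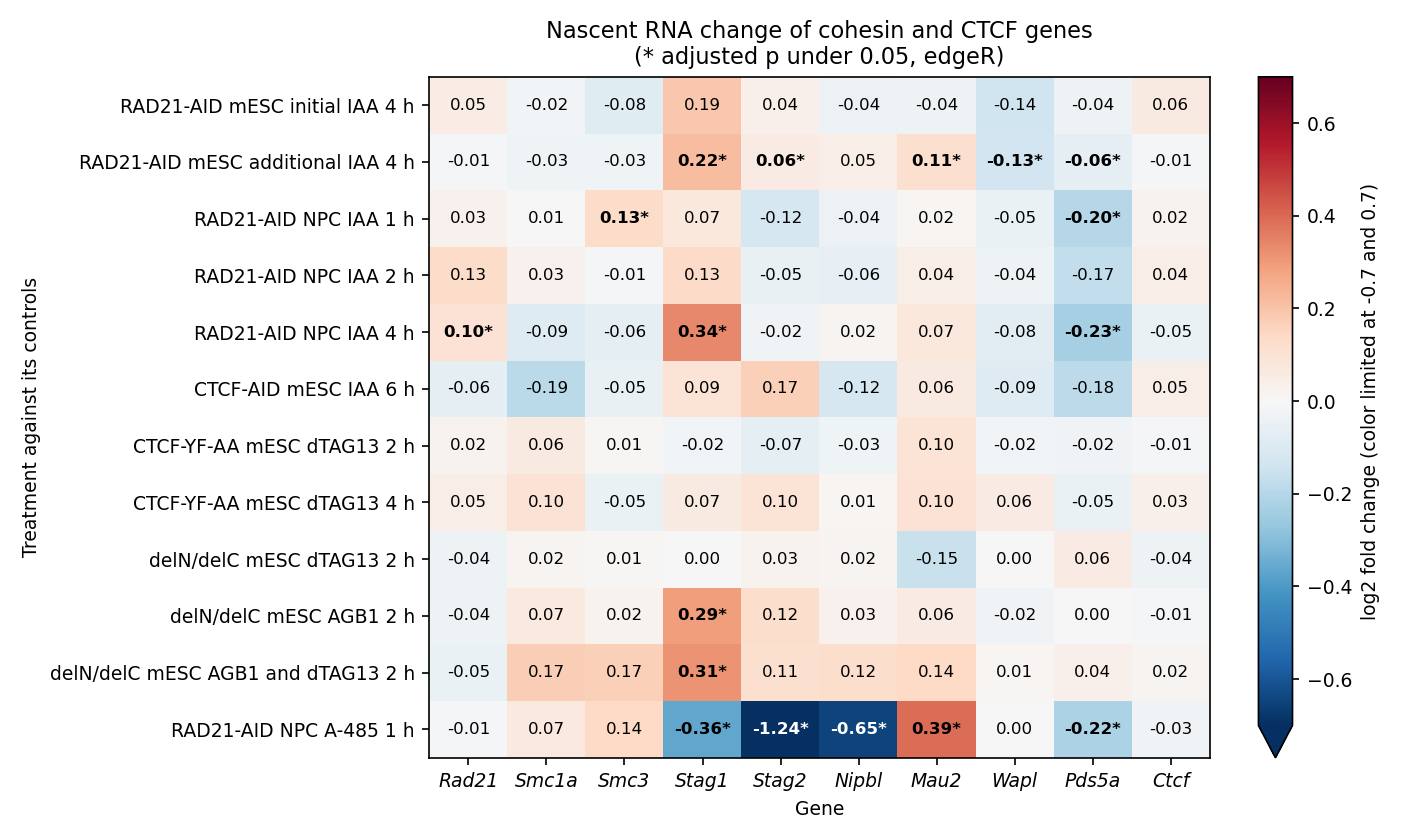
Log2 fold change of the 10 genes (horizontal axis) in the 12 treatment comparisons (vertical axis), treated over control, as colour limited to ±0.7 in either direction. The value is written in each cell, with a star for an adjusted p below 0.05. The Stag1 column holds the recurring rises, 0.22, 0.34, 0.29 and 0.31, and the largest value of all is Stag2 after A-485, -1.24.

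In NPC after RAD21 loss, Stag1 rose and Pds5a fell at 4 h, and Rad21 rose slightly, as given above. Of the 10 genes, 2 were called at 1 h, none at 2 h and 3 at 4 h, where 16.9, 15.4 and 39.9% of all genes were called. By direction, 1 gene fell at 1 h (10% of all genes) and 1 rose (6.88%), and at 4 h 1 fell (24.5%) and 2 rose (15.4%). These time points share their control cells, so their values are given side by side.

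Stag1 was at 624 and 614 CPM in the NPC controls, at 760.3 and 638 CPM after 2 h and at 767 and 833 CPM after 4 h of IAA. All 4 treated libraries lay above both controls, the 2 h replicates being far apart. At 4 h the log2FC was 0.34 (SE 0.040, adjusted p 3.41e-08), a 1.26-fold rise that held under all 11 alternatives. At 1 and 2 h it was 0.073 (95% CI -0.012 to 0.16, adjusted p 0.25) and 0.13 (95% CI -0.064 to 0.33, adjusted p 0.365) by edgeR. The overlapping transcript, which starts upstream, rose at each time, with log2FC 0.17, 0.31 and 0.39 (adjusted p 0.0104, 0.0278 and 6.33e-09). Its 1 h call was lost with DESeq2 (adjusted p 0.116), without control replicate 2 (adjusted p 0.111) and without treated replicate 1 (adjusted p 0.057), and its 2 h call without either control (adjusted p 0.112 and 0.257). In these NPC the median log2FC of expressed genes over 200 kb was -0.26 at 4 h, against 0.041 under 30 kb, and with that length trend removed Stag1, at 315.1 kb, stood at 0.64 (adjusted p 3.64e-14) at 4 h, 0.46 (adjusted p 0.00821) at 2 h and 0.18 (adjusted p 0.00514) at 1 h. The other long genes, Nipbl and Stag2, were not called at any time. With the trend removed both were called as lying above it at 4 h, Nipbl at 0.22 (adjusted p 1.07e-05, from 0.020) and Stag2 at 0.15 (adjusted p 0.00188). These p-values take the trend as known without error, and only 119 expressed genes were over 200 kb at 4 h.

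Pds5a was at 259.7 and 260.1 CPM in the NPC controls, at 237 and 239 CPM after 2 h and at 220.0 and 234 CPM after 4 h. Over the first 90 kb it was at 309.6 and 309.9 CPM in the controls and 276 and 270.5 CPM after 1 h. Every treated library was below both controls at each time. The log2FC was -0.20 (SE 0.038, adjusted p 0.000883) at 1 h, -0.17 (adjusted p 0.098) at 2 h and -0.23 (SE 0.038, adjusted p 1.02e-05) at 4 h by edgeR, the last a 1.17-fold fall. With the length trend removed the 1 h call was lost (log2FC -0.11, adjusted p 0.0531) and the 4 h log2FC shrank to -0.11 (adjusted p 0.0228), the 4 h call being kept under all 11 alternatives.

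Smc3 was called at 1 h, from 238 and 251 CPM in the controls to 273 and 267.4 CPM over the first 90 kb. The log2FC was 0.13 (SE 0.040, adjusted p 0.0356) and the call held under only 6 of 12 alternatives. It was lost with DESeq2 (adjusted p 0.213), without either control (adjusted p 0.332 and 0.0532) and without treated replicate 1 (adjusted p 0.0937). At 2 and 4 h Smc3 had a log2FC of -0.013 and -0.065, neither called. Wapl, which fell in mESC, was at 192 and 188 CPM in NPC controls and 186 and 180.3 CPM at 4 h, with a log2FC of -0.081 (95% CI -0.16 to -0.0024, adjusted p 0.0959 by edgeR). With 1 treated library left out at 2 h, where none of the 10 was called, 5 were called without replicate 1 and 2 without replicate 2.

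Whether the 4 h effect of IAA differed between NPC and mESC was tested as an interaction with the additional experiment, which called 33.5% of all genes (13.4% as higher in NPC and 20.1% as lower). Of the 10 genes, Rad21 rose more in NPC, by 0.12 on the log2 scale (SE 0.048, adjusted p 0.0417), and Pds5a fell more, with a difference of -0.15 (SE 0.052, adjusted p 0.016). For Stag1 the difference was 0.13 (95% CI -0.0012 to 0.27, adjusted p 0.124) and for Wapl 0.066 (95% CI -0.030 to 0.16, adjusted p 0.317) by edgeR, while the overlapping Stag1 transcript passed at 0.20 (SE 0.067, adjusted p 0.0141), a call lost without NPC control replicate 2 (adjusted p 0.137) and without treated replicate 2 (adjusted p 0.249). With the trend along gene length removed, the difference was 0.36 for Stag1 (adjusted p 1.37e-05), 0.12 for Wapl (adjusted p 0.0454) and -0.075 for Pds5a (adjusted p 0.29), so that Stag1 and Wapl passed and Pds5a did not. Against the initial mESC experiment neither the Rad21 nor the Pds5a difference passed, with 0.079 for Rad21 (adjusted p 0.582) and -0.16 for Pds5a (adjusted p 0.21). Neither passed without NPC control replicate 1 (adjusted p 0.315 for Rad21 and 0.0616 for Pds5a) or without treated replicate 1 (adjusted p 0.134 and 0.225), and Rad21 was also lost without treated replicate 2 (adjusted p 0.0938).

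Loss of CTCF without substitutions for 6 h called none of the 10 genes, where 3.57% of all genes were called. The CTCF-AID libraries pair by replicate number, and with that number as a block 28.2% of all genes were called and 2 of the 10, Pds5a lower (12.3% of all genes) and Stag2 higher (15.8%). Pds5a was at 354 and 327 CPM in the unstranded controls and 311 and 277 CPM after IAA, and at 329 and 402 and then 277 and 346 CPM in the stranded libraries. It was lower in each of the 4 pairs, with a log2FC of -0.18 (95% CI -0.38 to 0.013, adjusted p 0.336) and, with the block, -0.18 (adjusted p 0.00382) by edgeR. Stag2 was at 106 and 100.2 CPM and then 122 and 112 CPM in the unstranded libraries and at 98.8 and 153 and then 109 and 156 CPM in the stranded ones, higher in each pair. Its log2FC was 0.17 (adjusted p 0.621) and, with the block, 0.17 (adjusted p 0.0151) by edgeR. The other 17 alternatives called none of the 10, the sum of same-numbered libraries included. Whether same-numbered stranded and unstranded libraries come from the same RNA is not given in the sources used here, so the 4 pairs may not be independent. Stag1, at 396 and 334 CPM and then 419.7 and 347 CPM unstranded and 356 and 615 and then 384 and 613 CPM stranded, varied more between replicates than with IAA. Its log2FC was 0.093 (95% CI -0.32 to 0.51, adjusted p 0.864), and with the block 0.10 (adjusted p 0.0891), by edgeR.

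Loss of the CTCF that cannot hold cohesin called none of the 10 genes at 2 h or at 4 h, where 3.97% and 4.94% of all genes were called. Stag1 was at 554 and 529.9 CPM in CTCF-YF-AA controls, 506 and 548 CPM at 2 h and 547 and 576 CPM at 4 h. These groups overlapped, with log2FC of -0.018 (95% CI -0.11 to 0.078) and 0.065 (95% CI -0.025 to 0.15). Rad21 was at 308 and 316 CPM, then 323 and 307 CPM and 311 and 329 CPM, with log2FC of 0.024 (95% CI -0.086 to 0.13) and 0.045 (95% CI -0.056 to 0.15). The log2FC of the 10 genes lay between -0.070 (Stag2) and 0.10 (Mau2) at 2 h.

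In delN/delC cells Stag1 rose with AGB1 but was not called with dTAG13. It was the only one of the 10 called with AGB1, where 2.14% of all genes were, and with both agents, where 6.67% were. Stag1 was at 686 and 627 CPM in the controls and at 824 and 779 CPM with AGB1, which degrades the form without the N terminus. It was at 659.6 and 650.4 CPM with dTAG13, which degrades the form without the C terminus, and at 850.2 and 788 CPM with both. All 4 libraries with AGB1 lay above all controls and above all dTAG13 libraries, which lay among the controls. Stag1 rose with AGB1, with a log2FC of 0.29 (SE 0.050, adjusted p 0.000233, 1.23-fold), where 0.69% of all genes rose. It rose with both agents, with a log2FC of 0.31 (SE 0.057, adjusted p 0.000172, 1.24-fold), where 1.96% of all genes rose. With dTAG13 its log2FC was -0.0017 (95% CI -0.10 to 0.10), none of the 10 was called and 0.0808% of all genes were. The direct comparison of both agents with dTAG13 alone gave 0.31 (SE 0.042, adjusted p 1.81e-05), and that with AGB1 alone 0.025 (95% CI -0.053 to 0.10, adjusted p 0.848) by edgeR. The AGB1 call was lost without AGB1 replicate 1 (log2FC 0.25, adjusted p 0.0683), and the call with both held under all 11 alternatives. The overlapping transcript gave 0.23 (adjusted p 0.0182) with AGB1 and 0.25 (adjusted p 0.00526) with both, calls that were lost with DESeq2 (adjusted p 0.177 and 0.0604), without control replicate 2 (adjusted p 0.222 and 0.234) and without treated replicate 1 (adjusted p 0.178 and 0.124). Leaving out 1 library also moved the count over the 10 genes, which was 2 with AGB1 without control replicate 1, and with both agents 3 without that control and 2 without treated replicate 1.

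**Figure D3:**
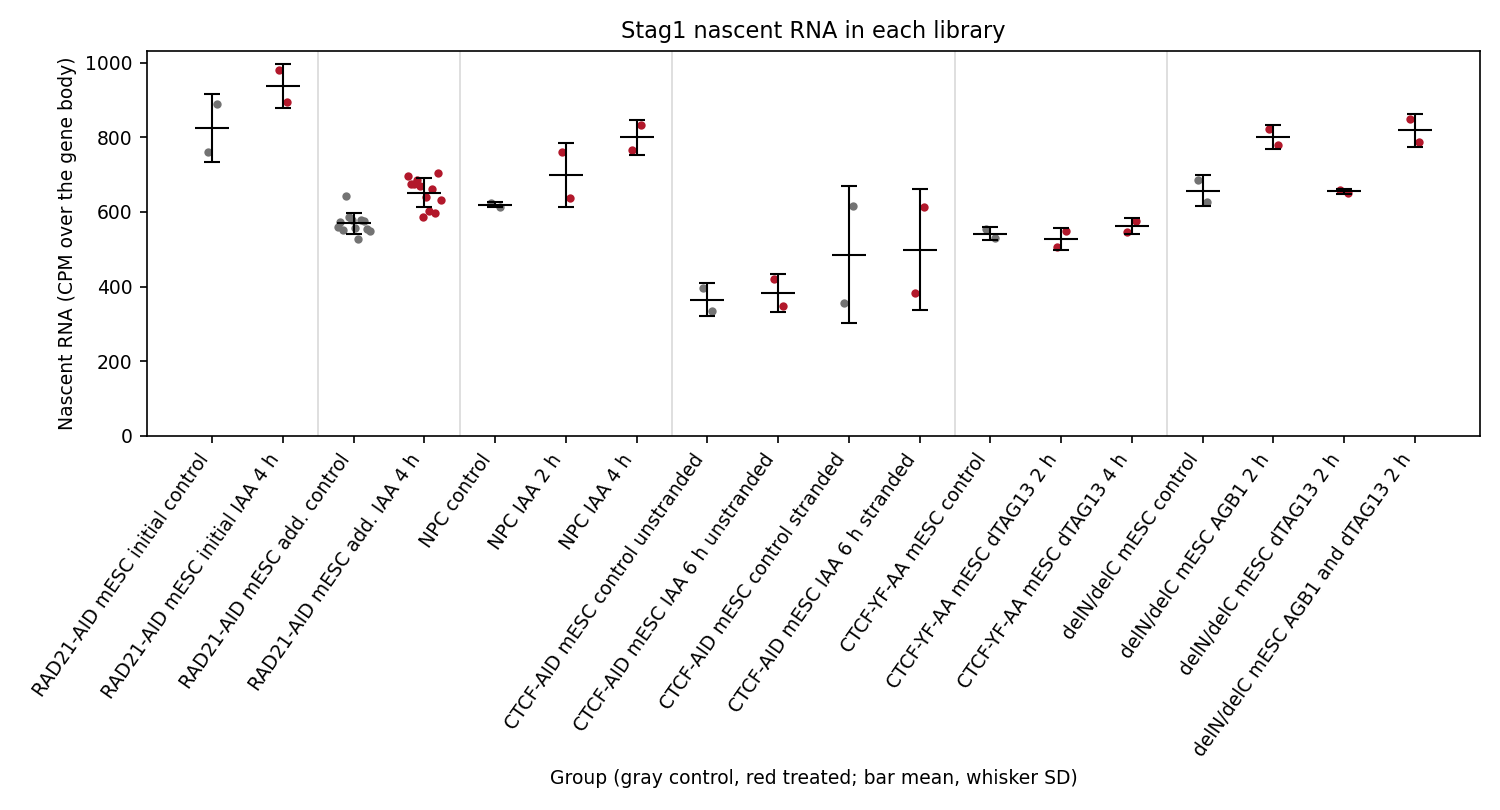
Nascent RNA of Stag1 in CPM (y axis) for every library of the 18 groups counted over whole gene bodies (x axis), points being libraries and lines group means. The rises after RAD21 loss and with AGB1 (824 and 779 against 686 and 627 CPM) sit on differences between untreated lines that are as large, from 396 and 334 CPM in unstranded CTCF-AID controls to 760.5 and 889 CPM in initial RAD21-AID controls.

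Both agents against dTAG13 alone also called Mau2 and Smc3, where 6.18% of all genes were called and 1.44% were higher. Mau2 was at 67.4 and 77.2 CPM with dTAG13, below its controls (80.0 and 81.8 CPM), and at 89.2 and 90.1 CPM with both, above them. That difference was 0.29 (SE 0.070, adjusted p 0.0108) on the log2 scale, whereas against the controls Mau2 passed in neither comparison (adjusted p 0.999 with dTAG13 and 0.234 with both, by edgeR). Smc3 was at 353 and 309 CPM in controls, 338 and 332 CPM with AGB1, 330.0 and 335 CPM with dTAG13 and 373 and 372 CPM with both, the last above every other library. Its difference from dTAG13 was 0.16 (SE 0.045, adjusted p 0.039), and from the controls 0.17 (95% CI 0.051 to 0.28, adjusted p 0.0762) by edgeR. With DESeq2 neither difference from dTAG13 passed (adjusted p 0.116 for Mau2 and 0.158 for Smc3), and without replicate 1 of dTAG13 the adjusted p was 0.176 and 0.205, without replicate 2 of both agents 0.0564 and 0.126. Both agents against AGB1 alone called none of the 10, and 0.901% of all genes.

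A-485, given to NPC for 1 h, gave the largest change of the 10 genes, and no other of the 12 treatment comparisons held a 2-fold change of one of them. It called 5 of the 10, where 62.6% of all genes were called. Stag2, Nipbl, Stag1 and Pds5a fell (41.1% of all genes) and Mau2 rose (21.5%). A fall of 2-fold or more, as Stag2 showed, was called for 20.2% of all genes. These libraries were counted over the first 90 kb and share their controls with the 1 h IAA libraries.

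Stag2 was at 267.2 and 248 CPM in the controls and 125 and 116 CPM after A-485. It fell 2.37-fold, with a log2FC of -1.24 (SE 0.067, adjusted p 1.09e-10). Nipbl was at 225 and 213 CPM in the controls and 165 and 144 CPM after A-485, a log2FC of -0.65 (SE 0.071, adjusted p 7.83e-07). No treated library of either gene reached a control, but treated and control libraries were also apart for all the other genes, uncalled ones included. The share of all genes set apart in this way was not counted. Stag1 was at 242 and 229.9 and then 217 and 189 CPM, a log2FC of -0.36 (SE 0.072, adjusted p 0.000377). Pds5a was at 309.6 and 309.9 and then 302 and 285 CPM, a log2FC of -0.22 (SE 0.062, adjusted p 0.0053), a call lost without either control (adjusted p 0.105 and 0.0953) and without centring (adjusted p 0.165). Centring moved all log2FC of this comparison by 0.124. Mau2 went the other way, from 80.1 and 89.9 CPM to 116 and 129.8 CPM, a log2FC of 0.39 (SE 0.072, adjusted p 0.000224), or 1.31-fold.

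The genes that fell are the long ones of the 10. After A-485 the median log2FC of expressed genes was 0.053 under 30 kb, -0.078 from 30 to 90 kb, -0.39 from 90 to 200 kb (548 genes) and -0.96 over 200 kb (102 genes). With this trend along gene length removed, Stag2 was still lower at -0.90 and Nipbl at -0.26 (adjusted p 0.00533). Stag1 and Pds5a, which both fell, then stood above the trend for their length. The distance from it was 0.21 for Stag1 (adjusted p 0.0189) and 0.043 for Pds5a (adjusted p 0.566). The short genes Rad21 and Ctcf had log2FC of -0.011 (95% CI -0.15 to 0.13) and -0.026 (95% CI -0.15 to 0.10). Rad21 was at 226.6 and 242 CPM in the controls and 244 and 269.7 CPM after A-485, and Ctcf at 245 and 247 CPM and then 264 and 270.4 CPM. Smc1a, Smc3 and Wapl had 0.069, 0.14 and 0.00050, none called. With the trend removed Smc3 (0.20, adjusted p 0.00841) and Wapl (0.21, adjusted p 0.00704) were called as higher. Smc3 was also called as higher under 5 other alternatives, among them without centring (0.26, adjusted p 0.00127) and without either A-485 library (adjusted p 0.00297 and 0.0093).

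**Figure D4:**
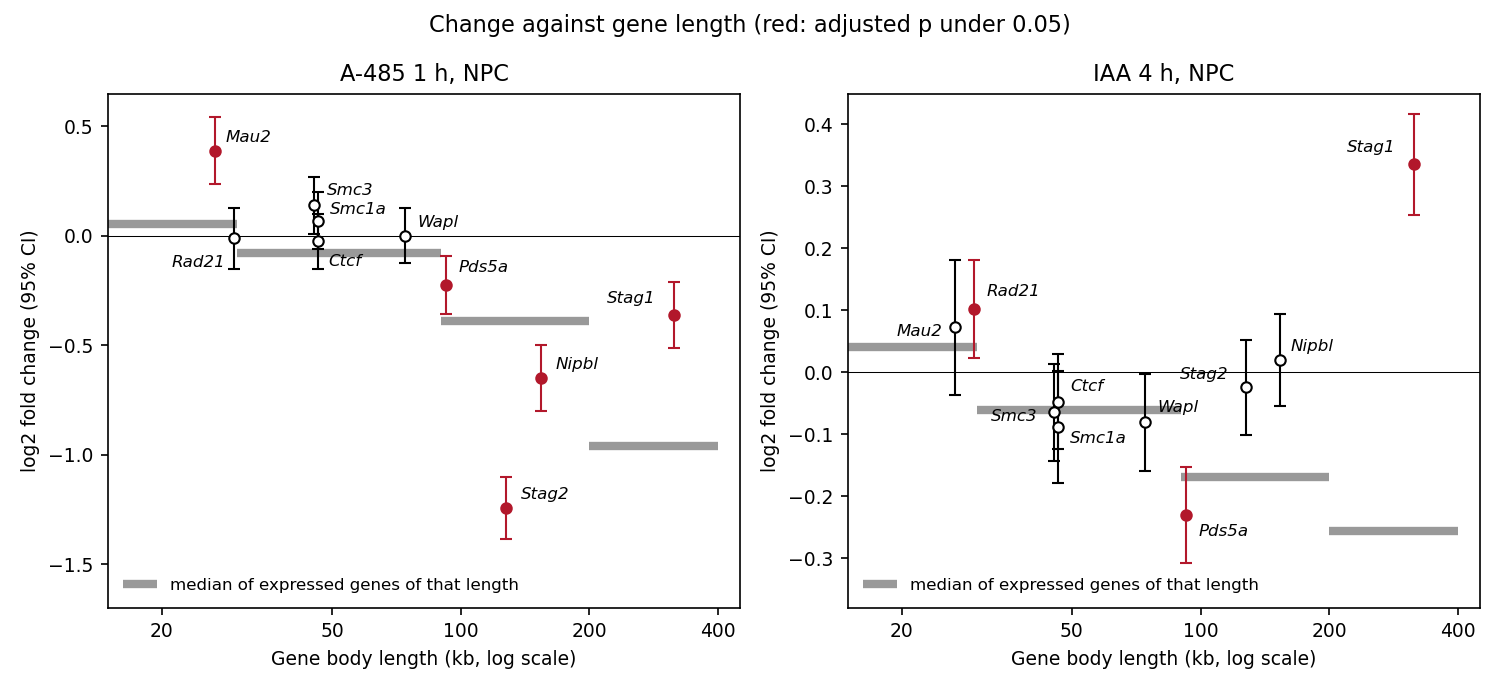
Log2 fold change with 95% CI (y axis) of the 10 genes against gene body length in kb on a log scale (x axis), for NPC after 1 h of A-485 and after 4 h of IAA, with gray bars for the median expressed gene of each length class and called genes in red. After A-485 Stag2 (-1.24) lies below the median of its class (-0.39) and Stag1 (-0.36) above that of its class (-0.96), and after IAA Stag1 (0.34) lies far above its class (-0.26).

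Between untreated cell types the STAG2 subunit gene differed most. NPC controls were compared with the 12 additional mESC controls, and 9 of the 10 genes passed, where 89.8% of all genes did. Stag2, Nipbl, Stag1 and Mau2 were higher in NPC (48.6% of all genes) and Wapl, Rad21, Pds5a, Ctcf and Smc3 lower (41.2%), and a difference of 2-fold or more upwards, as Stag2 had, was called for 26.8% of all genes. Cell type and experiment cannot be told apart here, and in bulk RNA neither can fewer cells that read a gene and less reading per cell.

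Stag2 was at 327 and 314 CPM in the NPC controls, against lowest 137, median 144, highest 157 CPM in mESC, a 2.34-fold difference (log2FC 1.23, SE 0.033, adjusted p 7.67e-36). Per kb this put Stag2 (2.51 ± 0.0739 CPM per kb) above Stag1 (1.97 ± 0.0222) in NPC, the reverse of the mESC order. Nipbl was at 346 and 337 CPM, against lowest 257, median 270.0, highest 294 CPM in mESC (log2FC 0.42, adjusted p 2.91e-16). Wapl was at 192 and 188 CPM, against lowest 327, median 337, highest 354 CPM (log2FC -0.76, adjusted p 3.91e-25). The NPC libraries of these 3 genes lay outside the mESC range, as did those of Rad21, Smc1a, Smc3, Pds5a and Ctcf. The share of all genes outside it was not counted. Rad21, at 185 and 197 CPM, was 1.34-fold lower in NPC (log2FC -0.42, SE 0.034, adjusted p 3.62e-16). Pds5a, at 259.7 and 260.1 CPM, had a log2FC of -0.38 (SE 0.037, adjusted p 3.06e-13) and Ctcf, at 199.7 and 201 CPM, of -0.22 (SE 0.035, adjusted p 1.19e-07). Against the 2 initial mESC controls Stag2, Wapl, Rad21, Pds5a and Ctcf kept their direction and their call.

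Stag1 and Mau2 depended on which mESC served as reference. Against the additional controls Stag1 was higher in NPC (log2FC 0.20, SE 0.038, adjusted p 4.35e-06), and against the initial controls lower (-0.53, adjusted p 1.57e-08). Mau2 went from 0.13 (adjusted p 0.0135) to -0.12 (adjusted p 0.113), and Nipbl to 0.058 (adjusted p 0.422), by edgeR. With the trend along gene length removed, Stag1 stood below the trend for its length in NPC (-0.24, adjusted p 9.63e-08). The median log2FC of expressed genes over 200 kb was 0.60. Smc3 (log2FC -0.082, adjusted p 0.0272) was lost without NPC control replicate 1 (adjusted p 0.301), and Mau2 without replicate 2 (adjusted p 0.521), by edgeR. Smc1a was not called, with a log2FC of -0.072 (95% CI -0.15 to 0.00088).

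**Figure D5:**
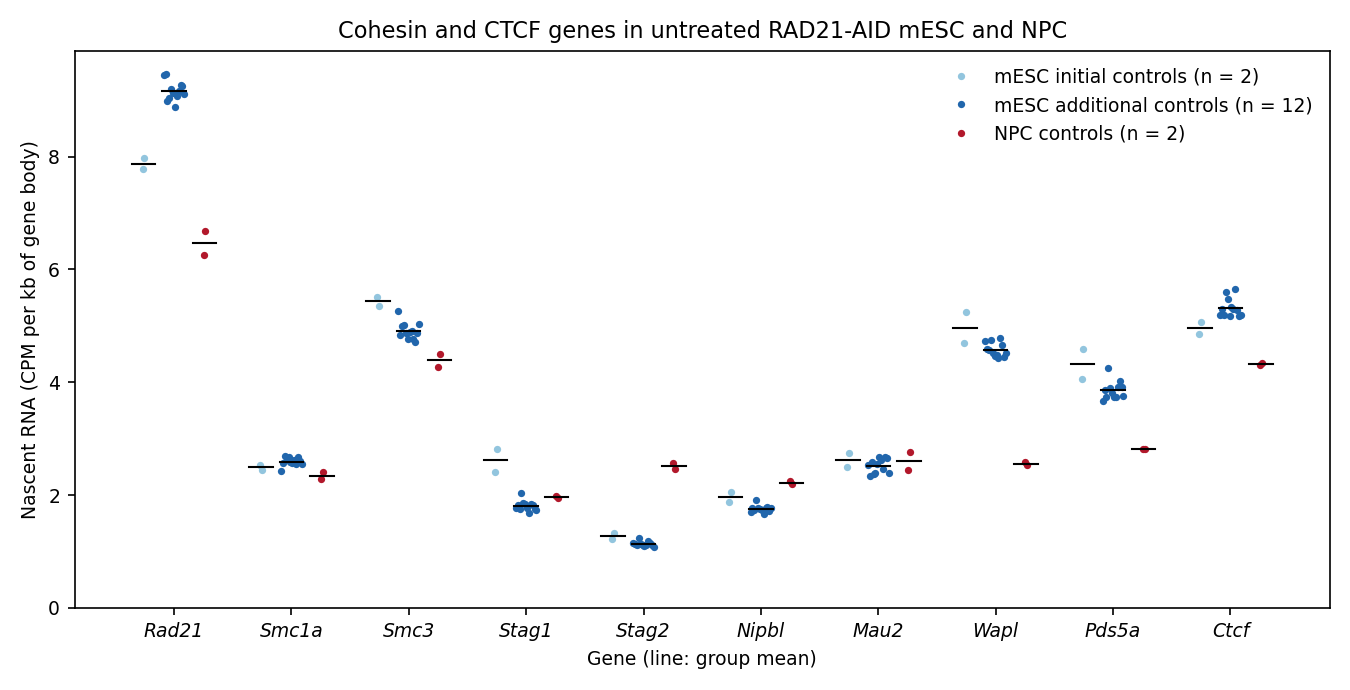
Nascent RNA of the 10 genes in untreated RAD21-AID cells, in CPM per kb of gene body (y axis) by gene (x axis), for mESC of the initial experiment (n = 2), mESC of the additional experiment (n = 12) and NPC (n = 2), with points for libraries and lines for group means. Rad21 is highest in every group, Stag2 is higher in NPC (2.51) than in mESC (1.13 and 1.27), and for Stag1 the initial mESC lie above the NPC and the additional mESC below them.

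The untreated CTCF-YF-AA and CTCF-AID lines differ in clone and degron besides the substitutions, so line and mutation cannot be told apart. Against the unstranded CTCF-AID controls, 4 of the 10 genes passed, where 47.6% of all genes did (21.6% as higher and 26% as lower). Stag1 was higher in CTCF-YF-AA cells, at 554 and 529.9 CPM against 396 and 334 CPM (log2FC 0.56, SE 0.081, adjusted p 4.25e-05), and so was Ctcf itself, at 305 and 299 CPM against 265 and 254 CPM (log2FC 0.21, SE 0.071, adjusted p 0.0254). Wapl and Pds5a were lower, with log2FC of -0.21 (adjusted p 0.0321) and -0.24 (adjusted p 0.0117). With the trend along gene length removed (median 0.20 over 200 kb), Stag1 stood at 0.29 (adjusted p 0.00852), Ctcf was not called (0.15, adjusted p 0.103) and Smc1a was, as lower (-0.27, adjusted p 0.0223). With all 4 CTCF-AID controls, stranded ones included, none of the 10 passed, the adjusted p being 0.284 for Stag1 and 0.276 for Ctcf. Without CTCF-YF-AA control replicate 1 or 2, Stag1 alone was still called, and Wapl was also lost without CTCF-AID control replicate 1 (adjusted p 0.0776 by edgeR).

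A wider list of 38 genes that work with these 10 was counted beside them. It held other cohesin regulators, meiotic cohesin subunits, the CTCF paralog and partners, condensins and the SMC5/6 complex, of which 36 or 37 could be tested. After RAD21 loss 1 fell and none rose in the initial mESC experiment (8.64% of all genes called), and 11 fell and 11 rose in the additional one (58.7%). In NPC 3 fell and 1 rose at 1 h (16.9% of all genes called), 6 fell and 1 rose at 2 h (15.4%), and 15 fell and 5 rose at 4 h (39.9%, or 24.5% lower and 15.4% higher), the falls including 5 of the 6 SMC5/6 genes. Those 5 had log2FC from -0.11 (Smc6) to -0.28 (Nsmce3), where the median absolute log2FC of all tested genes was 0.167. A-485 lowered 14 and raised 10 (62.6%). CTCF loss moved few of them, with 0 falls and 1 rise in CTCF-AID cells (3.57% of all genes called), 2 falls at 2 h (3.97%) and 2 at 4 h (4.94%) in CTCF-YF-AA cells, 1 fall with AGB1 (2.14%), none with dTAG13 (0.0808%) and 3 with both (6.67%). The CTCF-AID counts are from the main fit, without the replicate block. All of these are counts beside the background, with no test of the list.

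Among the wider list, the gene called most often after CTCF loss was Nsmce4a, a subunit of the SMC5/6 complex, which handles stalled and recombining DNA. It was at 97.9 and 109 CPM in CTCF-YF-AA controls, 66.4 and 67.4 CPM at 2 h and 56.0 and 63.0 CPM at 4 h. In delN/delC cells it was at 114 and 124 CPM in controls, 79.1 and 80.2 CPM with AGB1, 115 and 116 CPM with dTAG13 and 70.3 and 72.2 CPM with both. The libraries with AGB1 lay below all others and those with dTAG13 lay among the controls. The log2FC was -0.63 and -0.80 in CTCF-YF-AA cells, -0.57 with AGB1 (adjusted p 1.9e-07) and -0.74 with both. In CTCF-AID cells it was -0.37 (adjusted p 0.133 by edgeR, without the replicate block), from 139.9 and 154 CPM to 98.0 and 121 CPM unstranded. Its values with AGB1 alone and in CTCF-AID cells were chosen for print after they were seen.

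Other genes of the wider list with large changes lay in the A-485 and the untreated comparisons. After A-485 the topoisomerase gene Top2b (log2FC -0.83) and the meiotic subunit genes Rec8 (-0.79) and Smc1b (-0.66) fell, and Chtf18, of a clamp loader used for sister chromatid cohesion, rose (0.95). Of the list 23 were lower and 10 higher in NPC than in mESC, where 89.8% of all genes were called. Among them Trim28 (-1.75) and the cohesin acetyltransferase gene Esco2 (-1.71) were lower and Top2b (2.66), Nsmce1 (0.87) and Rec8 (0.85) higher, while Ctcfl had 1 count in each NPC control against a mean of 7.67 CPM in mESC. Untreated CTCF-YF-AA cells had 9 of the list lower and 9 higher than CTCF-AID cells, where 47.6% of all genes were called. Ctcfl was at 9.15 and 9.49 CPM there, against 0.381 and 0.799 CPM in CTCF-AID controls (log2FC 3.93, adjusted p 1.07e-06).

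Paralogs that could stand in for one of the 10 were also read, chosen after their values were seen. Pds5b, the paralog of Pds5a, rose in the additional mESC experiment (log2FC 0.11, adjusted p 1e-05) and fell in NPC, from 236 and 236 CPM in controls to 172 and 179 CPM at 4 h of IAA (log2FC -0.46, adjusted p 1.15e-11). That difference between cell types was -0.56 (adjusted p 1.24e-13). Pds5b spans 137 kb. The median log2FC of expressed genes of 90 to 200 kb was -0.17 at 4 h in NPC and -0.10 in the difference between cell types. Of the meiotic subunits in the additional mESC experiment, Rec8, the meiotic kleisin, rose (log2FC 0.38), Smc1b rose (0.13) and Stag3 fell (-0.27). The initial mESC experiment called none of them, and Rec8 and Stag3 had the opposite sign there. Its log2FC was -0.19 for Rec8 (adjusted p 0.659), 0.22 for Smc1b (adjusted p 0.0848) and 0.062 for Stag3 (adjusted p 0.718) by edgeR. In NPC after 4 h, Rec8 rose (0.30, adjusted p 0.0138), Stag3 fell (-0.25, adjusted p 0.00191) and Smc1b fell (-0.37, adjusted p 0.00672), as it did at 1 h (-0.57) and 2 h (-0.41), and for Smc1b the difference between cell types passed (-0.48, adjusted p 7.09e-05). Rad21l had too few counts to be tested anywhere. Ctcfl, the germline paralog of Ctcf, rose after RAD21 loss in the additional mESC experiment (log2FC 0.33, adjusted p 9.07e-06). After CTCF loss it was too low to test in CTCF-AID and delN/delC cells, and in CTCF-YF-AA cells its log2FC at 4 h was -0.79 (adjusted p 0.0968 by edgeR).

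The 18 group means span both cell types, hold libraries made with and without strand information, and share lines, libraries and depth. Over them Rad21 and Ctcf moved together (r = 0.94) and Rad21 and Stag2 oppositely (r = -0.93). How much of these correlations is the difference between NPC and mESC was not tested. Among 11811 genes the patterns most like Rad21 by Pearson correlation were Brd1 (0.982), Arl6ip1 (0.980) and Nr2c2ap (0.975), and those most like Ctcf were Alg6 (0.989), Polg (0.965) and Sfxn2 (0.962). Over the 15 mESC groups alone, r was 0.954, 0.945 and 0.950 for those of Rad21, in that order. For those of Ctcf it was 0.982, 0.926 and 0.906.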

How the data were processed

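Per their methods, the authors trimmed EU-seq reads with cutadapt, aligned them with bwa to mm10, removed reads of low mapping quality and of rRNA or tRNA genes, and counted the rest with HTSeq over chosen transcripts, mostly the longest isoform, so that a few genes have more than 1. The submitters' notes also name SAMtools 1.4. The deposited values are raw counts, in 56 columns whose names carry no length limit, taken as whole gene bodies, and 6 over the first 90 kb. Of the 27665 transcripts, 210 matched no annotated identifier.

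Genes with a mean count above 20 were tested with the quasi-likelihood test of edgeR 4.0.16 (R 4.3.3) on the groups compared, after TMM normalization, and log2 fold changes were centred on the median of expressed genes (TPM above 15). CTCF-AID fits held the library kind as a term. Alternatives were DESeq2 1.42.0, no filter, upper quartile normalization, no centring, the replicate block, leaving out each library and, added after seeing the data, removing a lowess trend (span 0.2) along gene length and crossing the replicate numbers. The p-values with that trend removed keep the SE of the main fit, so they leave out the uncertainty of the trend. Same-numbered CTCF-AID libraries deviated together (r = 0.607 unstranded, 0.844 stranded). They were taken as pairs only in the replicate block, and the main CTCF-AID fit did not pair them. The 10 genes and the lists were chosen with earlier results of these data known. Pathway genes were named by size, at most 3 each way among those called and changed by 1.5-fold or more, and exceptions are marked. Tested on simulated counts, the initial mESC comparison recovered 92% of 2-fold and 42% of 1.3-fold changes (14918 genes), and the additional one 100% and 87% (15539 genes). Reads carry no molecular identifiers, so depth covers counting error only.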

Additional observations from a re-analysis of the deposited data

Results flagged for a closer look

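The effect of 4 h of IAA differed between NPC and mESC of the additional experiment for 2 of the 10 genes, by an interaction test in edgeR. For Rad21 the log2 fold change in NPC minus that in mESC was 0.12 (adjusted p 0.0417), from 0.10 in NPC and -0.0059 in mESC. For Pds5a it was -0.15 (adjusted p 0.016), from -0.23 in NPC and -0.061 in mESC. Both differences missed the threshold against the initial mESC experiment (adjusted p 0.582 and 0.21), and without NPC control replicate 1 (adjusted p 0.315 and 0.0616). With the trend along gene length removed, Pds5a was lost too (-0.075, adjusted p 0.29) and Stag1 passed (0.36, adjusted p 1.37e-05), as its overlapping transcript already did without that correction (0.20, adjusted p 0.0141). Cell type and experiment cannot be told apart in this test.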

How the results depend on the processing

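Counts of the 10 genes called moved as follows. With DESeq2, 1 was called in NPC after 1 h of IAA (2 by edgeR) and 1 for both agents against dTAG13 (3 by edgeR). With no filter on low counts, 2 were called with both agents (1), 1 in the interaction (2) and 1 for both agents against AGB1 (0). Upper quartile normalization gave 2 with both agents. One fit of all groups of a line gave 1 in NPC at 1 h, 1 at 2 h (0) and 2 with both agents. The replicate block gave 2 in CTCF-AID cells (0), where the numbers pair. Elsewhere libraries share only a number, and the block gave 1 in NPC at 1 h, 2 with both agents and 1 for both agents against AGB1. With the length trend removed, 1 was called in the initial mESC experiment (0), where Stag1 had a log2FC of 0.25, 1 in NPC at 2 h and 5 at 4 h (3). All 4 CTCF-AID controls gave 0 for CTCF-YF-AA against CTCF-AID (4), and the initial mESC experiment gave 0 in the interaction. Samples of NPC at 1 h and of the initial experiment correlated negatively by number, and crossing the numbers gave 3644 genes called in NPC (2680 without a block) and 1874 in mESC (1311), with 1 of the 10 in mESC. The cause of these moves was not tested.

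Leaving out 1 library gave 0 to 1 of the 10 in the initial experiment, 1 to 3 in NPC at 1 h, 0 to 5 at 2 h and 2 to 4 at 4 h, 4 to 6 after A-485, 0 to 2 with AGB1, 1 to 3 with both agents, 1 to 5 for CTCF-YF-AA against CTCF-AID, 0 to 2 in the interaction, 1 to 3 for both agents against dTAG13 and 8 for NPC against mESC. It gave 0 throughout in CTCF-AID and CTCF-YF-AA cells, with dTAG13 alone and for both agents against AGB1. A group left with 1 library was assumed to vary like the others.

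Directions turned for 9 values that were called on at least 1 side. Values with the length trend removed are relative to genes of like length. Those that turned were Stag1 (0.21), its overlapping transcript (0.059) and Pds5a (0.043) after A-485, Stag2 in NPC at 4 h (0.15), and Stag1 (-0.24) and Smc3 (0.033) in NPC against mESC. With the initial mESC controls they were Stag1 (-0.53), its overlapping transcript (-0.68) and Mau2 (-0.12). Of the other values under an alternative, 1780 kept direction and side of the threshold, 129 turned sign without a call on either side, and with direction kept 77 lost the call and 51 gained it.

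Counts over all genes moved by more than 1.5 times as follows. DESeq2 called 512 in the initial experiment (edgeR 1311), 1145 in NPC at 1 h (2680), 4125 at 4 h (6447), 1120 in CTCF-AID (558), 238 and 330 in CTCF-YF-AA at 2 and 4 h (556 and 706), 152 with AGB1 (292), 363 with both (917), 28 and 319 for both against AGB1 (124) and dTAG13 (853). The block gave 854 in the initial experiment, 3754 in NPC at 2 h (2466), 4400 in CTCF-AID, 25 with dTAG13 (11) and 360 for both against AGB1. No filter gave 17 with dTAG13 and 164 lower and 63 higher for both against AGB1. CTCF-AID gave 1183 within unstranded and 0 within stranded libraries, 298 without the library term and 54 with libraries summed. The shared fit gave 1416 in NPC at 1 h, the length trend 1295 at 2 h, all CTCF-AID controls 2717 (7461) and the initial experiment 2875 in the interaction (5882). One library left out gave as few as 352 or as many as 2039 in the initial experiment, 1257 or 4926 in NPC at 2 h, 211 or 857 in CTCF-AID, 10 or 271 for both against AGB1, and as few as 1700 in NPC at 1 h, 363 and 445 in CTCF-YF-AA, 571 with both and 491 for both against dTAG13.

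With 2 libraries in most groups, many small changes go uncalled. Library totals of 4027449 to 21898781 counts left at least 261 counts for each of the 10 genes in every library. The length trend and Stag1's 2 overlapping transcripts bear on every Stag1 value.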
